A study of Mus musculus with 8 samples.

Results

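Reactive astrocyte genes are the genes that astrocytes of the mouse brain switch on after injury or inflammation, and 31 of them were followed here in contused mouse spinal cord. They were chosen by name from the published reactive astrocyte panel, as the protein-coding (NM_) probes whose gene symbol is on the list, and fall into 8 pan-reactive, 12 A1 and 11 A2 genes. The array carried 73 mRNA probes for these 31 genes, out of 47074 mRNA probes for 20476 genes. A gene was tested if 4 or more of the 8 arrays measured a probe of it well above background, which held for 30 of the 31 members and for 18198 mRNAs in all. Fbln5, an A1 gene for an elastic fibre protein, was above background on 1 array with one probe and on 0 with the other, and is not in any count below.

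The study measured mRNA, lncRNA and circRNA on 1-colour Agilent arrays in total RNA of thoracic cord (segments T9 to T10) from female mice of 8 weeks. There were 4 contusion samples and 4 control samples, 1 array each. The sample titles and the series design place the contusion samples at 3 days after injury, while the descriptions of contusion replicates 2, 3 and 4 give 4, 5 and 6 days. The series design calls the control mice sham-operated and the control descriptions call the tissue normal cord, so whether the controls had surgery is not settled. No label says that the samples of a group came from separate mice beyond the design's count of 8 mice, and no strain or transgene is given. The segments enclose the injury site, so the RNA is from whole tissue.

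In the adult cord astrocytes maintain ion and transmitter balance, and after trauma they enlarge, divide near the lesion and form a border around it. In mouse forebrain, genes induced by both endotoxin and ischaemic stroke were named pan-reactive, those induced mainly by endotoxin A1 and those induced mainly by stroke A2. Microglial interleukin 1 alpha, TNF and C1q are known to bring about the A1 pattern, and gp130 cytokines acting through STAT3 drive much of the general response. Many of these genes are made by other cells as well: Cd14, Srgn, Ptgs2 and Lcn2 are known from myeloid cells, and Tm4sf1, Emp1 and Cd109 by vessels or epithelia.

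The promoters of 5 members are shown, picked because each of these windows holds a motif searched for here. Other members had no match, as given below. RefSeq's promoter table (build GRCm38.p6) held 26 of the 31 members and lacked Serping1, Iigp1, S100a10, Cd109 and Cd14. Each sequence is the 250 bases before an annotated gene start, read 5′ to 3′ on the gene's strand, with the motif match in capitals. The Lcn2 and Slc10a6 windows hold the glucocorticoid receptor motif ACANNNTGT, Psmb8 the STAT motif TTCNNNGAA, Gbp2 the AP-1 motif TGANTCA and then, on the other strand, the interferon response motif (GAAA and GAAA with any 2 bases between), and Ptgs2 the C/EBP motif TTGCGCAA. The annotation also places the antisense transcript Ptgs2os across the Ptgs2 window.
Lcn2, minus strand, chr2:32387740-32387989: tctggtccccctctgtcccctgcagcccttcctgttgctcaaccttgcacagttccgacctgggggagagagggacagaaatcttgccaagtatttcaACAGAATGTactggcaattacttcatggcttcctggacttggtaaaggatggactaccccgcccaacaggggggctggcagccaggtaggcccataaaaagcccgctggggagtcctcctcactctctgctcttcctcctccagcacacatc
Psmb8, plus strand, chr17:34197945-34198194: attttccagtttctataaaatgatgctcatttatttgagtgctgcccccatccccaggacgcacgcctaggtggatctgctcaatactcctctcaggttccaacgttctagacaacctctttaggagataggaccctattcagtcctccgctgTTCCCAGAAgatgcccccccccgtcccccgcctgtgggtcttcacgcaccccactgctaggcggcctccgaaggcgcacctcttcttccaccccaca
Gbp2, plus strand, chr3:142620413-142620662: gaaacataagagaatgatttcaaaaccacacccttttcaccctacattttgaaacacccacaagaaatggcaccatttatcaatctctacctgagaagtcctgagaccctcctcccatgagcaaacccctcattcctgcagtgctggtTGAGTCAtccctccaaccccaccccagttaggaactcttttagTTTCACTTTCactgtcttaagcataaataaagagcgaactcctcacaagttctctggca
Ptgs2, plus strand, chr1:150099781-150100030: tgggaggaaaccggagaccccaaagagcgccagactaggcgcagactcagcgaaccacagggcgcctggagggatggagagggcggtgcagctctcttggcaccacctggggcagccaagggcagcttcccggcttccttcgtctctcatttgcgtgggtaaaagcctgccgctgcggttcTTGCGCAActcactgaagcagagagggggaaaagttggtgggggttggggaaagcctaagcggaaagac
Slc10a6, minus strand, chr5:103629404-103629653: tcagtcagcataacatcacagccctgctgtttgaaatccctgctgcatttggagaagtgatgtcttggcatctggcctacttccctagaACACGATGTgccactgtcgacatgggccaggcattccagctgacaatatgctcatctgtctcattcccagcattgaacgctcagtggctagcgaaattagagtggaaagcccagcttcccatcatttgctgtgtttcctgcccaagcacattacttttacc

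Across the 26 members, the same 250 bases were searched for 6 motifs on both strands, counting a gene where any of its annotated starts had a match. The table holds 32851 starts for 27025 genes. Genes with several starts, as Sphk1, Emp1 and Tgm1 have, give more bases to match, and the shares were not adjusted for this. The interferon response motif was in 5 members (19.2%; H2-T23, Gbp2, Srgn, Tgm1 and Tm4sf1), against 3.46% of the 27025 genes of the table. The STAT motif was in 5 members (19.2%; Steap4, Psmb8, Tgm1, Sphk1 and Emp1), against 8.13% of all genes. The AP-1 motif (Cp, Gbp2, Sphk1 and Emp1) and the glucocorticoid receptor motif (Lcn2, Serpina3n, Slc10a6 and Tm4sf1) were each in 4 members (15.4%), against 7.82% and 6.76% of all genes. The NF-kB motif (GGGA and TTCC with any 2 bases between) was in Tm4sf1 alone and the C/EBP motif in Ptgs2 alone (3.85% each), against 1.36% and 0.185% of all genes. At some starts 2 motifs overlap, as AP-1 and STAT do before Emp1. No match to any of the 6 motifs was found for Amigo2, Fbln5, Fkbp5, Ggta1, H2-D1, Ugt1a1, B3gnt5, Ptx3, Aspg, Cd44, Hspb1 and S1pr3. A match is a string of letters and shows no binding.

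Every level below is the log2 of the array's processed intensity minus that array's 75th percentile, and every difference is contusion minus control on that scale, with the standard error (SE) of the limma fit. A gene is called where limma's p-value, adjusted by Benjamini-Hochberg over all 89106 features tested, is below 0.05. In contused cord 27 of the 30 tested members rose, 1 fell and 2 were not called. All 8 pan-reactive genes rose, as did 8 of the 11 tested A1 genes and all 11 A2 genes. Of all mRNAs, 51.1% were called, 25.8% higher and 25.4% lower. The contusion and control arrays did not overlap for 27 of the 30 members, beside 51.8% of all mRNAs. The median difference was 1.79 over the pan-reactive genes, 0.84 over the A1 genes and 2.11 over the A2 genes, beside −0.0016 over all mRNAs tested. With the brightest probe of each gene, a rise of at least 2-fold was called in 8 pan-reactive, 5 A1 and 11 A2 genes, beside 8.33% of all mRNAs. In bulk tissue, more cells of a type that expresses a gene and more RNA of that gene per cell cannot be told apart.

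**Figure D1:**
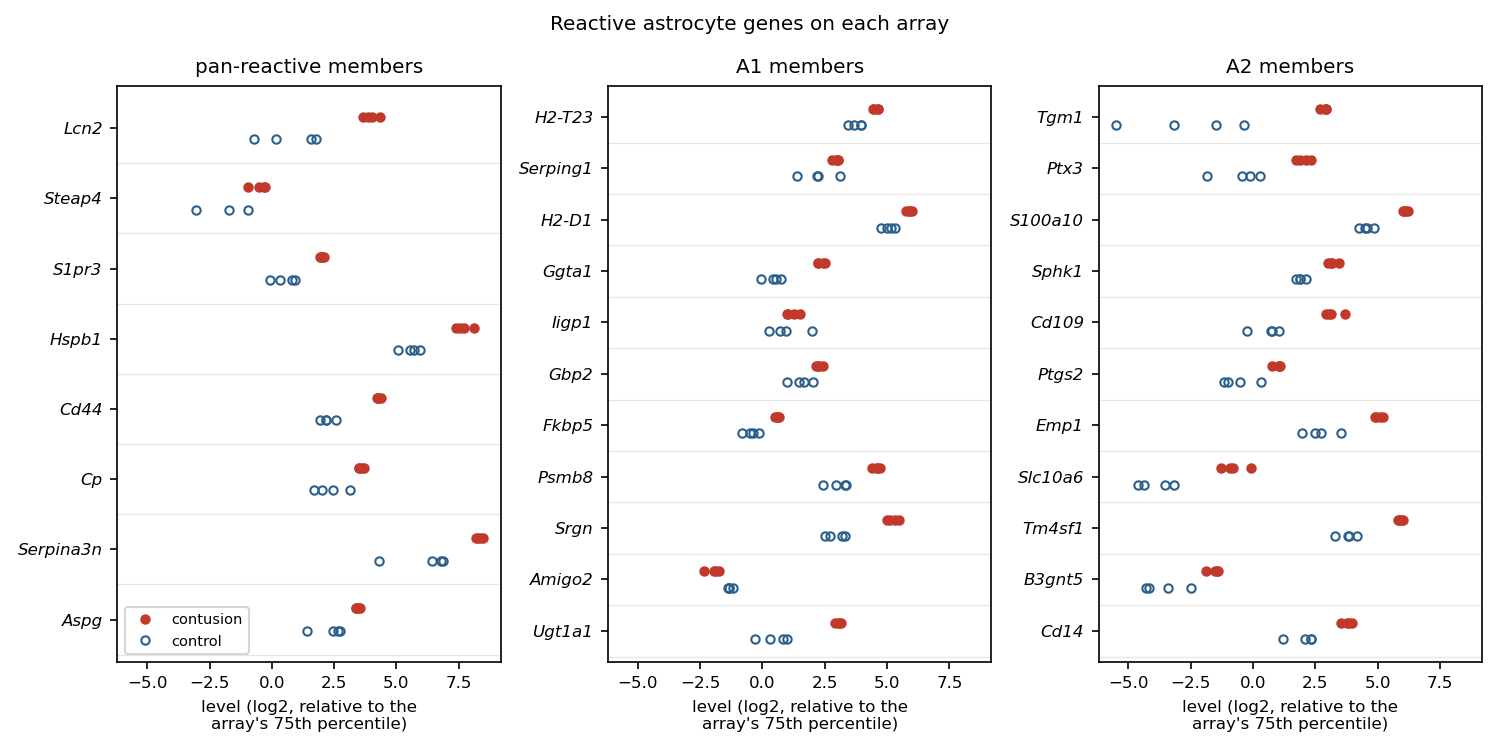
Level of each tested member on each array (log2, relative to the array's 75th percentile), with the 4 contusion arrays as filled points above the 4 control arrays as open points. The contusion points lie together and to the right of the control points for 26 of the 30 genes, and to the left of them for Amigo2.

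The arrays lay on 2 slides, the one with contusion replicate 1 and control replicates 2, 3 and 4, the other with contusion replicates 2, 3 and 4 and control replicate 1. Within the first slide the list medians were 1.80 (pan-reactive), 0.96 (A1) and 2.26 (A2), and within the second they were 1.33, 0.72 and 1.84. Each within-slide difference rests on 1 array of one group. With slide as a block in the fit, 7 pan-reactive, 7 A1 and 11 A2 genes were called higher, beside 25.2% of all mRNAs, and Steap4 and Gbp2 were the calls lost. Slide and the days in the descriptions cannot be told apart, because contusion replicate 1 is the only one described as 3 days.

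Of the pan-reactive genes, Lcn2 had the largest difference. It encodes lipocalin 2, a secreted protein that withholds iron-loaded siderophores from bacteria. Its levels were 3.87, 4.00, 4.33 and 3.65 on the contusion arrays, against 1.77, 0.17, 1.55 and −0.70 on the control arrays. All 4 contusion values lay above all 4 control values, and control replicates 1 and 3 were the highest controls. The difference was 3.26 ± 0.52 (SE, n = 4 each; 9.60-fold, adjusted p = 0.00160), and 3.53 and 2.22 within the slides. Serpina3n, a secreted serine protease inhibitor, had levels of 8.48, 8.35, 8.19 and 8.26 after contusion, against 6.79, 6.44, 6.85 and 4.28 in controls. Control replicate 4 stood well below the other controls. The difference was 2.23 ± 0.53 (4.69-fold, adjusted p = 0.0107), and without that array it was 3.09-fold (adjusted p = 0.000368).

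Hspb1, the small heat shock protein HSP27 that binds unfolding proteins and actin, had levels of 7.70, 8.13, 7.37 and 7.53 on the contusion arrays, against 5.53, 5.93, 5.69 and 5.05 on the control arrays. The groups were apart by more than the spread within either of them, and the difference was 2.14 within each slide. Cd44, the cell surface receptor for hyaluronan, had levels of 4.24, 4.39, 4.24 and 4.24, against 2.15, 2.57, 2.19 and 1.93 in controls. Contusion replicate 2 was the highest array for both genes. Hspb1 differed by 2.13 ± 0.22 (4.38-fold, adjusted p = 0.000252) and Cd44 by 2.07 ± 0.13 (4.19-fold, adjusted p = 8.32e-05). S1pr3, a G protein-coupled receptor for sphingosine 1-phosphate, averaged 2.01 ± 0.06 after contusion and 0.50 ± 0.47 in controls (SD, n = 4 each), a difference of 1.51 ± 0.21 (SE, adjusted p = 0.000822). Its other probes differed by 1.73 and 0.88.

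The other 3 pan-reactive genes had smaller differences. Cp encodes ceruloplasmin, the copper protein that oxidises ferrous iron, and averaged 3.58 ± 0.10 after contusion and 2.33 ± 0.62 in controls (SD, n = 4 each; difference 1.25 ± 0.27 SE, adjusted p = 0.00733). That probe carries the accession NM_007752. The 2 probes named for another Cp transcript, NM_001276250, differed by 0.26 and 0.19 and were not called, and the mean of all Cp probes differed by 0.57. Aspg, an asparaginase, averaged 3.44 ± 0.09 and 2.31 ± 0.60 (contusion and control; difference 1.13 ± 0.26, adjusted p = 0.0105). Its other probes differed by 1.09 and 0.50. Steap4, a metalloreductase that reduces iron and copper for uptake, had levels of −0.53, −0.97, −0.26 and −0.33 after contusion, against −1.71, −3.05 and −0.95 on 3 control arrays. The spot of control replicate 4 was an outlier on its array and was left out, and the groups overlapped. The difference of 1.38 ± 0.46 was called at an adjusted p of 0.0493, and this call was lost under 10 of the alternatives tried. The gene's other 2 probes also rose.

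Among the A1 genes of antigen presentation and interferon response, H2-D1, H2-T23 and Gbp2 rose by less than 2-fold and Psmb8 by more, while Iigp1 was not called. H2-D1, a classical class I histocompatibility heavy chain, had levels of 5.93, 6.00, 5.87 and 5.77 on the contusion arrays, against 5.30, 4.99, 5.18 and 4.74 on the control arrays. H2-T23, the non-classical class I chain Qa-1, had levels of 4.64, 4.48, 4.62 and 4.42, against 3.97, 3.67, 3.97 and 3.44 in controls. Neither gene's groups overlapped, and control replicate 4 was the lowest array for both. H2-D1 differed by 0.84 ± 0.12 (1.79-fold, adjusted p = 0.00112) and H2-T23 by 0.78 ± 0.13 (1.72-fold, adjusted p = 0.00203). The probes used for them share runs of at least 25 bases with probes of H2-K1 and H2-Q7, which differed by 0.87 and 0.93. With these probes the signal of close class I relatives cannot be told apart. A second H2-T23 probe shared no such run with a probe of another name on the array, and differed by 0.72 ± 0.15. Psmb8, the inducible catalytic subunit of the immunoproteasome that trims peptides for class I molecules, averaged 4.57 ± 0.12 after contusion and 3.02 ± 0.43 in controls (SD, n = 4 each). Its difference was 1.56 ± 0.20 (SE; 2.94-fold, adjusted p = 0.000589).

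Gbp2 and Iigp1 encode interferon-induced GTPases that attack vacuoles of intracellular pathogens. Gbp2 had levels of 2.13, 2.26, 2.44 and 2.23 after contusion, against 2.04, 1.47, 1.69 and 0.99 in controls. Control replicate 1 was just below the lowest contusion array. The difference was 0.71 ± 0.20 (adjusted p = 0.0231), with 0.75 and 0.26 within the slides, and the call was lost when slide entered the fit (0.51, adjusted p = 0.0832) and when control replicate 2 or contusion replicate 3 was left out. Iigp1 had levels of 1.26, 1.02, 1.50 and 1.00, against 1.97, 0.96, 0.69 and 0.28 in controls, so that the highest value was on control replicate 1. It was not called (0.22 ± 0.33, adjusted p = 0.639), and its sign was negative with slide as a block (−0.09) and within the second slide (−0.80).

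Serping1, the C1 inhibitor that restrains complement and contact proteases, had levels of 3.04, 2.95, 3.05 and 2.78 after contusion, against 2.20, 1.38, 3.11 and 2.23 in controls. Control replicate 3 was the highest array of all 8. The gene was not called (0.73 ± 0.31, adjusted p = 0.100), and was called without control replicate 3 (1.02, adjusted p = 0.00901). Fkbp5, a co-chaperone of steroid receptors and a target of glucocorticoids, had levels of 0.58, 0.64, 0.49 and 0.66, against −0.39, −0.16, −0.82 and −0.51 in controls. Its groups did not overlap, and it differed by 1.07 ± 0.13 (2.09-fold, adjusted p = 0.000537). The gene's other probes differed by 0.56 and 0.69, less than 2-fold, and were also called.

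The other A1 genes have no single theme. Srgn encodes serglycin, a proteoglycan core protein of secretory granules. It averaged 5.23 ± 0.20 after contusion and 2.92 ± 0.38 in controls (SD, n = 4 each). The difference was 2.31 ± 0.19 (SE, 4.96-fold, adjusted p = 0.000148). Ggta1, the enzyme that makes the alpha-gal sugar epitope, averaged 2.35 ± 0.14 and 0.41 ± 0.33 (contusion and control; difference 1.94 ± 0.16, adjusted p = 0.000149). Both genes were apart between groups on all arrays. The Ugt1a1 entry, for the enzyme that conjugates bilirubin, had levels of 3.09, 2.93, 3.09 and 3.14 after contusion, against 0.99, 0.31, 0.83 and −0.29 in controls. Its probe shares a run of at least 25 bases with a probe of Ugt1a6b, which differed by 2.61, and the second Ugt1a1 probe was above background on 0 of 8 arrays. The rise of 2.60 ± 0.26 (6.05-fold, adjusted p = 0.000227) is therefore given for the Ugt1a sequence the probe holds, not for Ugt1a1 alone.

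Amigo2, a membrane adhesion protein of neurons and other cells, was the member that fell. Its levels were −1.74, −1.87, −1.94 and −2.34 on the contusion arrays, against −1.17, −1.34, −1.35 and −1.39 on the control arrays. All contusion values lay below all control values. The difference was −0.66 ± 0.13 (adjusted p = 0.00466), and −0.38 and −0.88 within the slides. The gene's second probe also had a negative difference (−0.53), which was not called.

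All 11 A2 genes rose by more than 2-fold, although B3gnt5 rose by less than that (0.83 on the log2 scale) after normexp background correction and quantile scaling. Their groups did not overlap, beside 26.6% of all mRNAs whose contusion arrays were all above their control arrays. Tgm1, a transglutaminase best known for cross-linking the envelope of keratinocytes, had levels of 2.69, 2.94, 2.93 and 2.87 after contusion, against −0.37, −1.50, −3.18 and −5.50 in controls. The contusion arrays differed little among themselves while the controls were widely spread, and Tgm1 was well above background on 3 of the 4 control arrays, replicate 4 being the exception. The difference was 5.49 ± 0.96 (45.1-fold, adjusted p = 0.00253). The fold was 23.3 without control replicate 4 and 76.1 without control replicate 1, and after normexp and quantile scaling the difference was 3.98. Slc10a6, a transporter of sulphated steroids, had levels of −0.93, −0.07, −1.27 and −0.82, against −3.19, −4.39, −3.55 and −4.61 in controls. Contusion replicate 2 was its highest array, and the difference was 3.16 ± 0.36 (8.93-fold, adjusted p = 0.000396), or 1.47 after normexp and quantile scaling.

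The membrane proteins of the A2 list came next. Cd109, a GPI-anchored co-receptor that dampens TGF-beta signalling, had levels of 3.12, 3.68, 2.94 and 3.06 on the contusion arrays, against 1.05, 0.75, 0.73 and −0.24 on the control arrays. Emp1, a tetraspan epithelial membrane protein, had levels of 5.10, 4.94, 4.89 and 5.21, against 2.72, 2.50, 3.53 and 1.97 in controls. Tm4sf1, a tetraspan protein abundant in endothelium, had levels of 6.02, 5.83, 5.80 and 5.92, against 3.84, 3.80, 4.18 and 3.29. For each of the 3 genes the lowest control was replicate 4. Cd109 differed by 2.63 ± 0.28 (6.17-fold, adjusted p = 0.000306), Emp1 by 2.35 ± 0.29 (5.11-fold, adjusted p = 0.000511) and Tm4sf1 by 2.11 ± 0.17 (4.33-fold, adjusted p = 0.000141). Cd14, the co-receptor that hands lipopolysaccharide to TLR4, averaged 3.78 ± 0.18 after contusion and 1.98 ± 0.53 in controls (SD, n = 4 each; difference 1.80 ± 0.25 SE, adjusted p = 0.000811).

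Secreted and enzymatic A2 genes completed the list. Ptx3, the long pentraxin that opsonises microbes and binds C1q, had levels of 1.72, 1.87, 2.33 and 2.14 after contusion, against 0.27, −0.46, −0.12 and −1.84 in controls, a difference of 2.55 ± 0.41 (5.86-fold, adjusted p = 0.00179). Ptgs2, the inducible cyclooxygenase COX-2, had levels of 0.75, 1.02, 1.04 and 1.07, against −0.54, −1.01, 0.32 and −1.17, a difference of 1.58 ± 0.30 (2.98-fold, adjusted p = 0.00379). In both genes 1 control array stood nearest to the contusion arrays, replicate 1 for Ptx3 and replicate 3 for Ptgs2. Sphk1, the kinase that makes sphingosine 1-phosphate, had levels of 3.11, 3.44, 2.99 and 3.16, against 1.86, 1.90, 1.74 and 2.11 in controls. It was one of the 2 members whose control SD was not above the contusion SD, and it differed by 1.27 ± 0.12 (adjusted p = 0.000183). S100a10, the annexin A2 partner p11, averaged 6.11 ± 0.08 and 4.54 ± 0.25 (contusion and control), and B3gnt5, the enzyme that starts lacto-series glycolipids, −1.56 ± 0.22 and −3.59 ± 0.84 (SD, n = 4 each). S100a10 differed by 1.56 ± 0.12 (SE, adjusted p = 0.000135) and B3gnt5 by 2.03 ± 0.37 (adjusted p = 0.00339). The other tested B3gnt5 probe, for transcript NM_001159407, differed by 1.12 ± 0.66 and was not called.

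**Figure D2:**
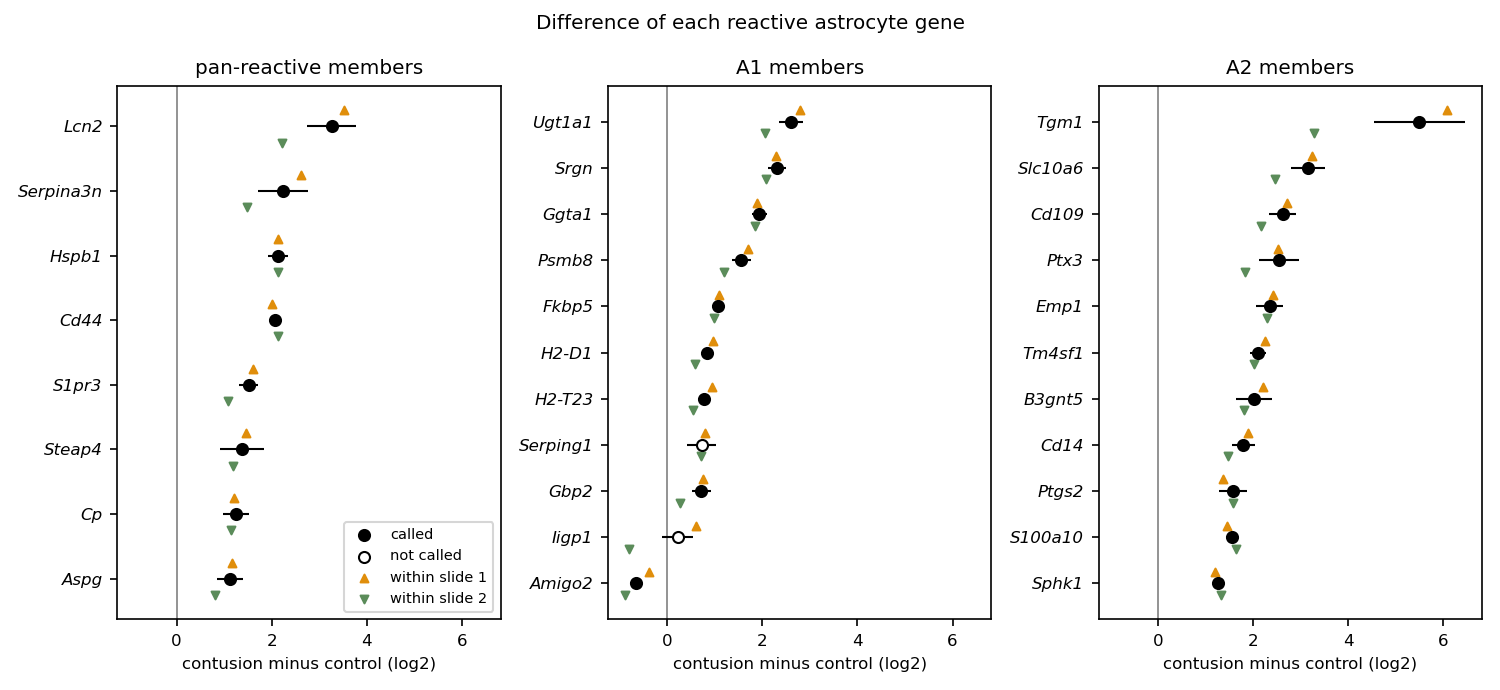
Contusion minus control (log2) for each tested member, by list. Circles with bars are the difference ± SE (n = 4 each; filled where called), upward triangles the difference within the first slide and downward triangles that within the second. Tgm1 has the largest difference (5.49) and the widest gap between slides (6.08 and 3.28), and Iigp1 is the member whose slides lie on either side of 0 (0.61 and −0.80).

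The controls, not the contusion arrays, carried most of the spread. The SD among controls was above the SD among contusion arrays in 28 of the 30 members, with medians of 0.13 among contusion and 0.55 among control arrays. Over all mRNAs these medians were 0.11 and 0.14. Of the 29 members with 4 control values, 24 were lowest on control replicate 4, beside 20.0% of all mRNAs. On control replicate 1, 0 members were lowest, beside 46.9% of all mRNAs. Among these members 13 were highest on control replicate 1 and 12 on control replicate 3. The shares of all mRNAs highest on these arrays were not counted. Averaged over the members, controls 1 to 4 deviated from their mean by 0.37, −0.09, 0.35 and −0.65. Without control replicates 1 and 3, the arrays with the higher values of neutrophil genes among the controls, 8 pan-reactive, 9 A1 and 11 A2 genes were called higher. Without contusion replicates 1 and 2, the arrays with the higher values of skeletal muscle genes, the counts were 4, 7 and 11, while the medians were 1.75, 0.78 and 2.13, close to those over all arrays.

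Over the control arrays the mean of the monocyte and macrophage markers had the same order as that of all members pooled, while the neutrophil markers were lowest on control replicate 2. The pan-reactive genes alone had another order, being highest on control replicate 3 (0.52, against 0.35 on control replicate 1). Microglia and red blood cell markers were also lowest on control replicate 4 (−0.45 and −0.69). All 10 monocyte and macrophage markers were above background on every array and all 10 were called higher (median 3.37). Their summed level was 8.59 to 8.95 after contusion and 4.33 to 6.45 in controls, and their mean deviations over controls 1 to 4 were 0.83, −0.23, 0.74 and −1.35. Of 10 neutrophil markers 4 were called higher, with summed levels of 5.45 to 7.41 and 4.25 to 7.16 (contusion and control) and deviations of 0.85, −1.36, 1.19 and −0.68 over controls 1 to 4. With slide as a block 1 neutrophil marker was called higher and the list's median was −0.06, against 0.64 without it. Of the other lists, 8 of 10 endothelial, 5 of 8 microglia and 4 of 4 red blood cell markers were called higher. With slide as a block 7, 5 and 1 were. Of 8 fibroblast and pericyte markers 2 were called higher, near the share of all mRNAs, and 3 with slide as a block. Of all mRNAs, 25.8% were called higher, or 25.2% with slide as a block, and 25.4% lower. None of the 8 skeletal muscle markers was called, and all 6 neuron markers were called lower. Of 6 lymphocyte markers 1 was called higher, of 6 oligodendrocyte markers 1 lower and of 3 ependymal markers 2 lower. The part of these cells in the members' differences was not tested.

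**Figure D3:**
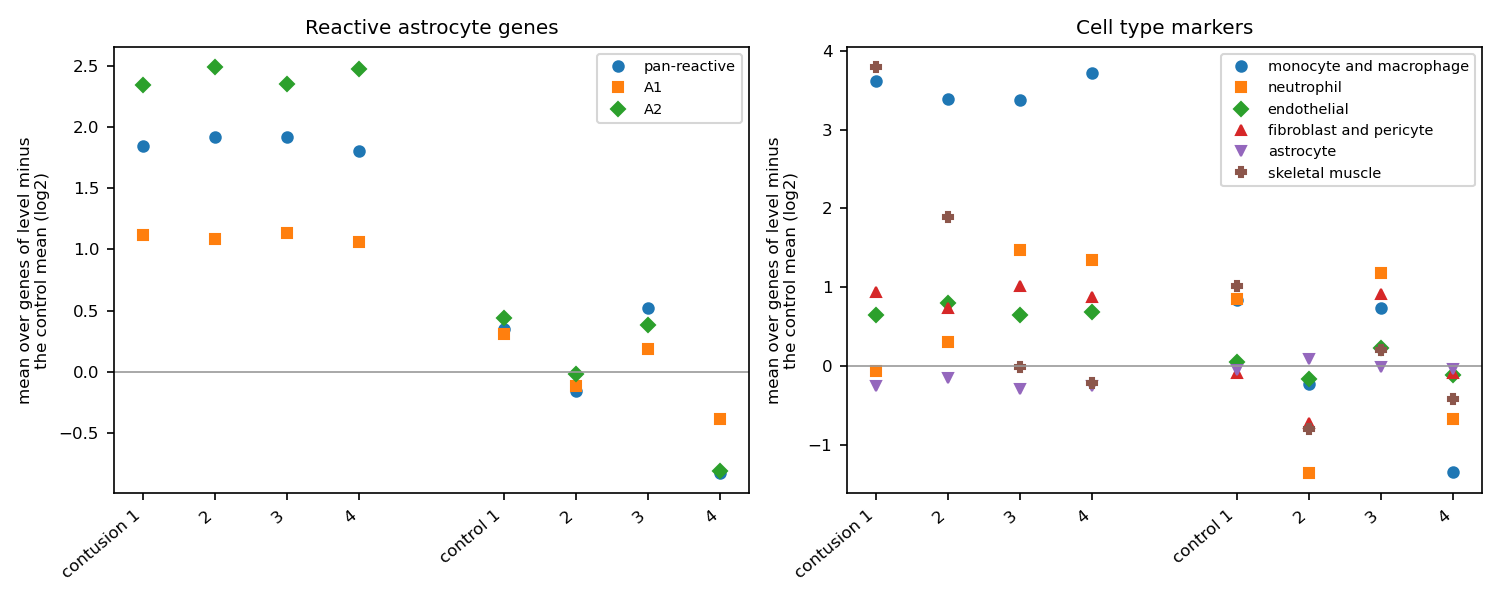
Mean over genes of the level minus the control mean (log2) on each array, contusion replicates 1 to 4 and then control replicates 1 to 4, for the 3 lists of reactive astrocyte genes and for 6 lists of cell type markers. On the contusion arrays the members keep nearly constant means while the skeletal muscle and neutrophil lists scatter. Control replicate 4 is lowest for all 3 member lists and for the monocyte and macrophage list. It was also lowest for the microglia and red blood cell lists, which are not plotted.

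The tissue held astrocyte RNA in both groups. All 12 astrocyte markers were above background on all 8 arrays. Of these, 7 were called lower, 3 higher and 2 in neither direction, and their median difference was −0.42. Of all mRNAs, 25.4% were called lower and 25.8% higher, so the share of markers called higher was near that of all mRNAs. Ntsr2 fell by 1.11 ± 0.09, Aldoc by 0.69 ± 0.09 and the glutamate transporter gene Slc1a2 by 0.67 ± 0.09, while Aldh1l1 (0.88 ± 0.08), Sox9 (0.53 ± 0.07) and the water channel gene Aqp4 (0.47 ± 0.10) rose. Their summed level was 9.75 to 9.91 after contusion and 10.1 to 10.3 in controls.

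Of 7 further pan-reactive or A2 genes of the published panel, 6 were called higher, and 5 with slide as a block. Of all mRNAs these shares were 25.8% and 25.2%. Timp1, the metalloproteinase inhibitor, rose by 2.59 ± 0.27, the oncostatin M receptor gene Osmr by 2.02 ± 0.21, the intermediate filament gene Vim by 1.99 ± 0.31 and the cytokine gene Clcf1 by 1.31 ± 0.18. Stat3 rose by 0.79 ± 0.10, and Gfap, the classical marker of reactive astrocytes, by 0.43 ± 0.14 (limma adjusted p = 0.0436). Cxcl10 had a difference of 0.97 ± 0.89 and was not called. Of the inducers and the widely used marker of the A1 state, Tnf rose by 3.47 ± 0.32 and C1qa, C1qb and C1qc by 1.73, 1.68 and 1.89. Il1a (0.43 ± 0.24, adjusted p = 0.198) and the marker C3 (0.20 ± 0.18, adjusted p = 0.430) were not called.

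Of 13 genes of gp130 and STAT3 signalling, 9 were called higher (8 with slide as a block) and 0 lower. Of all mRNAs, 25.8% were called higher (25.2% with slide as a block) and 25.4% lower. Lif rose by 2.77 ± 0.19, the feedback inhibitor gene Socs3 by 2.74 ± 0.30, Osmr as above and the shared receptor gene Il6st by 0.72 ± 0.07. Of 18 interferon response genes 16 were tested, Ifng and Cxcl9 being too dim. Of these 16, 12 were called higher and 0 lower, beside the same shares of all mRNAs. With slide as a block 9 were called higher, and the median difference of 0.69 became 0.75 and 0.30 within the slides. Irf8 rose by 1.70 ± 0.26, Tap1 by 1.19 ± 0.19, Psmb9 by 1.17 ± 0.20 and the receptor gene Ifngr1 by 0.52 ± 0.10. Of 8 glucocorticoid targets, 2 were called higher and 2 lower, shares near those of all mRNAs (25.8% and 25.4%). These were Cdkn1a (1.05 ± 0.08) and Dusp1 (0.40 ± 0.10), and Klf9 (−0.54 ± 0.10) and Tsc22d3 (−0.46 ± 0.09).

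Of 19 partners of the members, 12 were called higher (10 with slide as a block) and 2 lower. Of all mRNAs, 25.8% were called higher (25.2% with slide as a block) and 25.4% lower. The sphingosine 1-phosphate receptor gene S1pr2 rose by 1.38 ± 0.09 and the lyase gene Sgpl1 by 1.20 ± 0.09, beside Sphk1 and S1pr3. Ly96, which pairs with TLR4 and is reached through CD14, rose by 1.32 ± 0.11. Among makers of hyaluronan, the ligand of CD44, Has2 rose by 2.02 ± 0.18 and Has1 fell by 0.33 ± 0.10. Slc22a17, reported as a receptor for lipocalin 2, fell by 0.72 ± 0.11 (adjusted p = 0.00117), the opposite direction to Lcn2.

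The array also carries circRNA probes named by position. The scanner headers name build mm9, and no source used here gives a build for these positions themselves. They were placed on GRCm38, where 97.8% of the positions fell inside a protein-coding gene and 35.9% did so after a shift of 1e+06 bases. Whether the positions follow mm9 was not tested. Within exactly 1 member gene lay 34 tested circRNAs, in 6 genes. Of these, 30 were called higher and 0 lower, beside 16.2% and 25.7% of all 35615 circRNAs, and their median difference was 1.16 beside −0.05. The 18 circRNAs of Cd44 were all called higher, with differences of 0.62 to 2.19 (median 1.69) beside 2.07 for its mRNA. Of 11 circRNAs of Fkbp5, 8 were called higher, with a range of 0.04 to 1.29 (median 0.86) beside 1.07 for the mRNA. Both circRNAs of Ptgs2 (1.41 and 1.93) and the single ones of Ggta1 (1.70) and Cp (1.19) were called higher, and that of Sphk1 (0.51, adjusted p = 0.0604) was not. The Cd44 circRNA at 2.19 and the Ptgs2 circRNA at 1.93 were above background on 4 contusion and 0 control arrays. They passed the filter through the contusion arrays alone, are among the 30 called, and have no precise control level. CircRNAs of one gene share its transcripts, and whether a linear transcript also binds these probes was not tested.

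**Figure D4:**
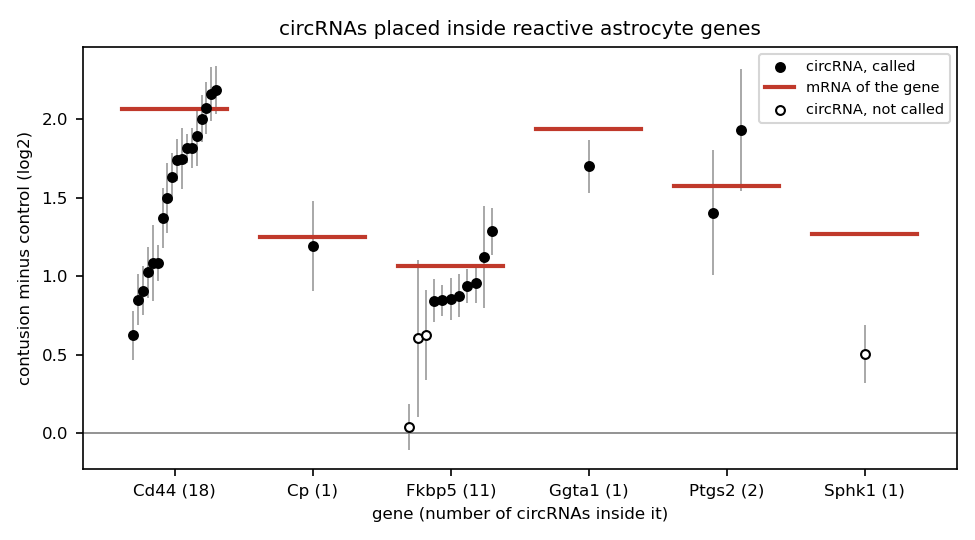
Contusion minus control (log2, ± SE, n = 4 each) of the 34 circRNAs placed inside a member gene, with a bar for the mRNA of that gene. Filled points are called and open points are not. All 18 Cd44 circRNAs lie above 0, most of them below the bar of the mRNA.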

How the data were processed

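The 8 scanner files were deposited by the authors as Agilent Feature Extraction output, and the processed intensity per spot is background-subtracted, per the file headers. Feature Extraction appears as version 10.7 in the submitters' processing notes, which also list limma, and as version 12.0.3.1, with build mm9, in the headers. The authors also deposited a log2 table of the same arrays, whose columns ranked the spots as the intensities did (Spearman 1), with column medians of 5.40, not centred per gene; it served as an alternative. Of the 172336 spots per array counted in the headers, 9.90% had no row in the scanner files. Without control spots, 150305 probes per array remained.

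Control spots and outlier spots were removed, log2 intensity was scaled to each array's 75th percentile, and the brightest probe stood for a gene. Symbols came from RefSeq's gene table for 99.1% of mRNA accessions. Groups were compared with limma 3.58.1 in R 4.3.3 (lmFit and eBayes, two-sided, group as the only term), tested on simulated data first. Probes well above background made up 72.9 to 75.4% per array, no spot was saturated, and within-group correlations were 0.987 to 0.992. The median SE of an mRNA difference was 0.0944, and 4 arrays per group limit the precision. P-values measure the spread between these samples. All members were named; of other lists, up to 4 called genes with the smallest adjusted p, genes called the opposite way, and lists of up to 7 in full. Members, lists and motifs were chosen with earlier results of these data known. Alternatives covered scaling, background, filter, probe choice, slide, replicate number and left-out arrays.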

Additional observations from a re-analysis of the deposited data

Results flagged for a closer look

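In 59 groups of 4 arrays over the members, 3 values stood far from the other 3 of their group by Dixon's test, which chance gives in about 1 in 20 groups. Cd44 was at 4.39 on contusion replicate 2, against 4.24 to 4.24 on the other contusion arrays, a gap that is wide only beside their narrow range. Ptgs2 was at 0.749 on contusion replicate 1, against 1.02 to 1.07 on the others. Serpina3n was at 4.28 on control replicate 4, against 6.44 to 6.85 on the other controls, and its rise was called with and without that array.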

How the results depend on the processing

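Limits first: with 4 arrays per group on 2 unevenly filled slides, slide effects rest on 1 array a side, and dim probes (Tgm1 in controls, Fbln5) have no precise level. Under quantile scaling, normexp with quantile scaling, the authors' log2 table, the mean of a gene's probes and adjustment over mRNAs alone, all 30 tested members kept their direction and their side of the threshold. The sizes of dim genes moved: with normexp and quantile scaling B3gnt5 differed by 0.83, Slc10a6 by 1.47 and Tgm1 by 3.98, against 2.03, 3.16 and 5.49, and with the mean of its probes Cp by 0.57, against 1.25. The filter for background on all arrays left out Tgm1, so that 10 A2 genes were called higher, and changed no other member. Without a filter Steap4 was not called. Leaving out 1 array at a time, 7 to 8 pan-reactive, 7 to 9 A1 and 11 A2 genes were called higher, 1 fell, and the medians were 1.50 to 1.96, 0.74 to 0.95 and 1.95 to 2.40; 7928 to 9610 mRNAs were called. Iigp1, never called in these, ran from −0.0135 to 0.55, and was also negative with slide as a block (−0.0910) and within the second slide (−0.796). The pan-reactive median was 1.33 within the second slide, and the A2 median 2.67 without control replicates 1 and 3. Without contusion replicates 1 and 2, 4 pan-reactive genes were called higher, Aspg, Cp, Serpina3n and Steap4 being lost with 2 contusion arrays left, although their differences of 1.13, 1.23, 2.14 and 1.61 were close to or above those over all arrays. The causes of these shifts were not tested. Same-numbered contusion and control arrays did not deviate together (correlations −0.30, −0.006, −1.2e-05 and −0.05). Every same-numbered pair was split between the slides, so this check cannot decide whether the numbers pair the samples. With replicate number as a block 7469 mRNAs were called, against 9306, and 8 pan-reactive, 8 A1 and 11 A2 genes were still called higher.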

Other observations

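Probes below background belong to no comparison. The first Fbln5 probe was at −2.82, −7.11, −5.25 and −6.42 on the contusion arrays, against −5.73, −6.87, −5.40 and −5.98 on the control arrays. Its single value above the rest, on contusion replicate 1, is also the array with the highest mean of skeletal muscle markers, and the second Fbln5 probe was at −5.49 there, within the range of its other arrays. The second Ugt1a1 probe lay between −7.14 and −6.06 after contusion and between −7.62 and −5.42 in controls, with the groups fully overlapping, while the Ugt1a1 probe used for the test did not overlap between groups.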
